A study of Rattus norvegicus with 17 samples.

Results

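The genes described here encode the subunits of calcineurin: the catalytic subunits Ppp3ca (α), Ppp3cb (β) and Ppp3cc (γ), and the regulatory subunit Ppp3r1 (calcineurin B). They were taken by symbol from the deposited gene table, in which all 4 of the 4 genes sought were present among 11247 gene labels, with no cut on a measured value. The mRNA was read in primary cultures of neurons and astrocytes from rat cerebral cortex that were infected with an empty vector or with α-synuclein carrying the A53T substitution, and then given FK506 or its vehicle. The groups were vector in DMSO (3 libraries), vector at 0.2 µM FK506 (3), vector at 2.0 µM FK506 (3), A53T in DMSO (2), A53T at 0.2 µM FK506 (3) and A53T at 2.0 µM FK506 (3). The lower dose is described by the submitters as not saturating and the higher as saturating. All 17 libraries thus came from infected cultures, and the promoter that drives the insert, the length of treatment and the age of the cultures are not stated in the labels.

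Calcineurin is a serine and threonine phosphatase that binds calcium and calmodulin and is abundant in neurons. Each enzyme pairs a catalytic subunit with calcineurin B, which binds calcium itself, and calmodulin then releases the catalytic site from its own inhibitory tail. Active calcineurin removes phosphate from NFAT transcription factors, which then enter the nucleus, and from synaptic proteins such as dynamin. FK506 binds the immunophilin FKBP12, and the pair of them blocks the enzyme at the junction of its catalytic and regulatory subunits. In brain the α and β catalytic subunits predominate, and the γ subunit is best known from testis. The values below are mRNA levels and hold no measure of phosphatase activity.

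Normalized totals ran from 15091428 to 18335540 per library. Over genes with mean values of 10 to 3000, the 3 libraries of A53T at 0.2 µM were compared with sampling noise, taking 1 normalized count as 1 read. They differed from each other by 0.995 to 1.05 times that noise, against 1.48 to 14.5 times for pairs in other groups. From 3000 to 10000, where their values of Ppp3ca, Ppp3cb and Ppp3r1 lie, the ratios were 1.15 to 1.77, against 2.9 to 138. On that reading they differed there by more than sampling noise and by less than any other pair. As the raw depth is unknown and may differ between libraries, the true multiples of sampling noise for these 3 libraries are not known. Their mean entered the tests as a single sample, and each comparison with that group rests on a lone sample. In those same 3 libraries the neuronal gene Map2 lay between 17890 and 18730 normalized counts, and in the other 14 between 71.76 and 1484. Of the marker lists, 11 of 12 pan-neuronal, 8 of 8 glutamatergic, 7 of 8 GABAergic, 10 of 10 astrocyte and 0 of 8 microglial genes were matched by symbol, and none of the matched genes was at 0 in all libraries of any group. Microglia were therefore not analysed here. Within groups, the first libraries of vector at 0.2 µM and of A53T at 2.0 µM and the second of vector at 2.0 µM lay apart from their partners, and several results are also given without them.

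By symbol, 3 of the 4 genes matched the RefSeq promoter sequences used here, all but Ppp3cc. The sequences just upstream of these 3 are shown for that reason alone, and no link between them and the mRNA levels was tested. Each run is the 250 bases before the RefSeq start of the gene, written 5′ to 3′ on the plus strand of the later rat build GRCr8, at chr2:227839357-227839606 for Ppp3ca, chr15:3809012-3809261 for Ppp3cb and chr14:95769596-95769845 for Ppp3r1. Capitals mark the GC box GGGCGG, the cyclic AMP response element core TGACG and the NFAT core GGAAA, each searched on both strands, so that CCGCCC is the GC box, CGTCA the response element core and TTTCC the NFAT core on the other strand.
Ppp3ca: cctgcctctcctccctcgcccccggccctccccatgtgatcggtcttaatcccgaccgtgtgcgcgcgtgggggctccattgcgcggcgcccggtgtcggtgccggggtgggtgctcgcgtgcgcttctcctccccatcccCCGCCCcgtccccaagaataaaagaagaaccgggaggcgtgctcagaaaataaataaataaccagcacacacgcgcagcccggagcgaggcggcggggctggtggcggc
Ppp3cb: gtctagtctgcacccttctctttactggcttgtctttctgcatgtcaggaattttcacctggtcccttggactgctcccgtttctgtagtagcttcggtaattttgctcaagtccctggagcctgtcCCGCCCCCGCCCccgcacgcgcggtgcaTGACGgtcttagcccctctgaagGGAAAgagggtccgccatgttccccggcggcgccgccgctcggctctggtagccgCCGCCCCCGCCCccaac
Ppp3r1: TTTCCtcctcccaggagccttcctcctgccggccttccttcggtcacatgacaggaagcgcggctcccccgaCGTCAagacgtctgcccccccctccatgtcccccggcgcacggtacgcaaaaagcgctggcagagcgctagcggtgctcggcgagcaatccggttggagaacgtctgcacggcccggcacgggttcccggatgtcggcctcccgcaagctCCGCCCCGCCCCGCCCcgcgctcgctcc
All 3 windows were rich in G and C, at 68.0% for Ppp3ca, 62.8% for Ppp3cb and 70.4% for Ppp3r1, against a median of 51.2% over 33469 rat windows of the same length. Ppp3ca held 1 GC box, Ppp3cb 4 and Ppp3r1 3, and 30.5% of all windows held at least 1. Ppp3cb and Ppp3r1 each held 1 TGACG, found in 18.2% of windows, and 1 GGAAA, found in 56.9%, and neither motif was in the Ppp3ca window. Searches on both strands for the full response element TGACGTCA, the E box CACGTG, the box CCAAT and the TATA box TATAAA matched none of the 3 windows, against 1.59%, 5.59%, 34.0% and 12.9% of all windows. These are matches of letters and no measure of binding.

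At 2.0 µM FK506 in vector cultures the mRNA of 3 of the 4 subunits was lower than in DMSO past the test. Ppp3ca fell the most, with a log2 difference of -0.69 ± 0.16 (SE), Ppp3r1 fell by 0.39 ± 0.07 and Ppp3cc fell by 0.18 ± 0.06 on the log2 scale, while Ppp3cb was at -0.43 ± 0.21 and did not pass. Over all genes 47.2% passed in this comparison and 23.8% passed as lower, so a single lower gene is common here. The test was limma on log2(value + 1) over all 11247 genes with Benjamini-Hochberg adjustment, and a gene was called at an adjusted p below 0.05. The median log2 difference of the 4 genes was -0.41 and that of all genes 0.00. In A53T cultures the same dose gave lower Ppp3ca and Ppp3cb and higher Ppp3cc, so 2 of 4 fell and 1 rose, where 37.6% of all genes passed (17.9% lower and 19.7% higher). The medians there were -0.42 for the 4 genes and 0.01 for all genes. In a limma fit of only those 2 groups none of the 3 A53T calls passed, with adjusted p of 0.0513 for Ppp3ca, 0.129 for Ppp3cb and 0.154 for Ppp3cc.

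**Figure D1:**
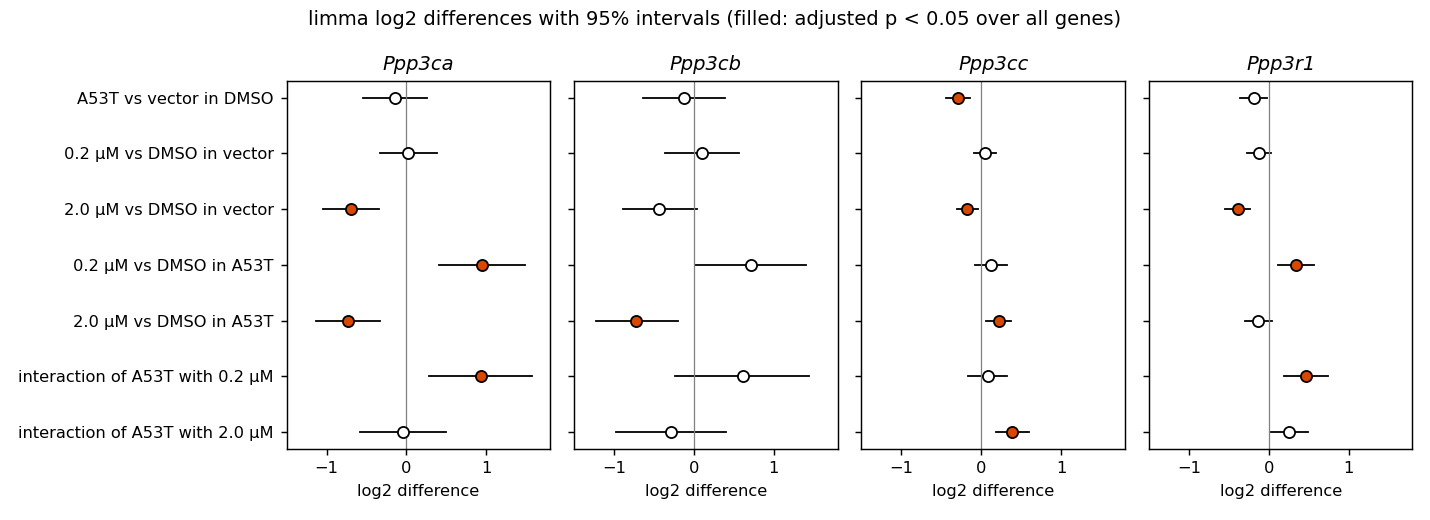
Log2 difference (x axis) of each calcineurin subunit gene in 7 comparisons (y axis), with 95% intervals as bars and filled points where the limma adjusted p was below 0.05. Ppp3ca lies to the left at 2.0 µM in both genotypes, and Ppp3cc lies to the left in vector and to the right in A53T.

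At 0.2 µM in vector cultures none of the 4 subunits passed limma's test at an adjusted p below 0.05, where 18.3% of all genes did, and at an unadjusted p below 0.05 the count was also 0. In A53T cultures at the same dose Ppp3ca and Ppp3r1 rose, 2 of 4, where 67.8% of all genes passed and 33.6% passed as higher. Without drug, A53T cultures differed from vector in Ppp3cc alone among the 4 (1 of 4, lower), where 14% of all genes passed and 8.19% passed as lower. For 3 of 4 subunits in A53T at 0.2 µM (89.4% of all genes), and for 2 of 4 in vector at 0.2 µM (38.7%), the libraries did not overlap with DMSO. At 2.0 µM they did not overlap with DMSO for 4 of 4 in vector (60.5%) and 3 of 4 in A53T (64.5%), nor with 0.2 µM for 4 of 4 in either genotype (45.2% and 87.1%). In DMSO all 4 subunits were lower in every A53T library than in any vector library, where 60.4% of all genes did not overlap in one direction or the other. In each of these comparisons a changed share of a cell type and a changed RNA level per cell cannot be told apart, since the cultures were read in bulk.

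**Figure D2:**
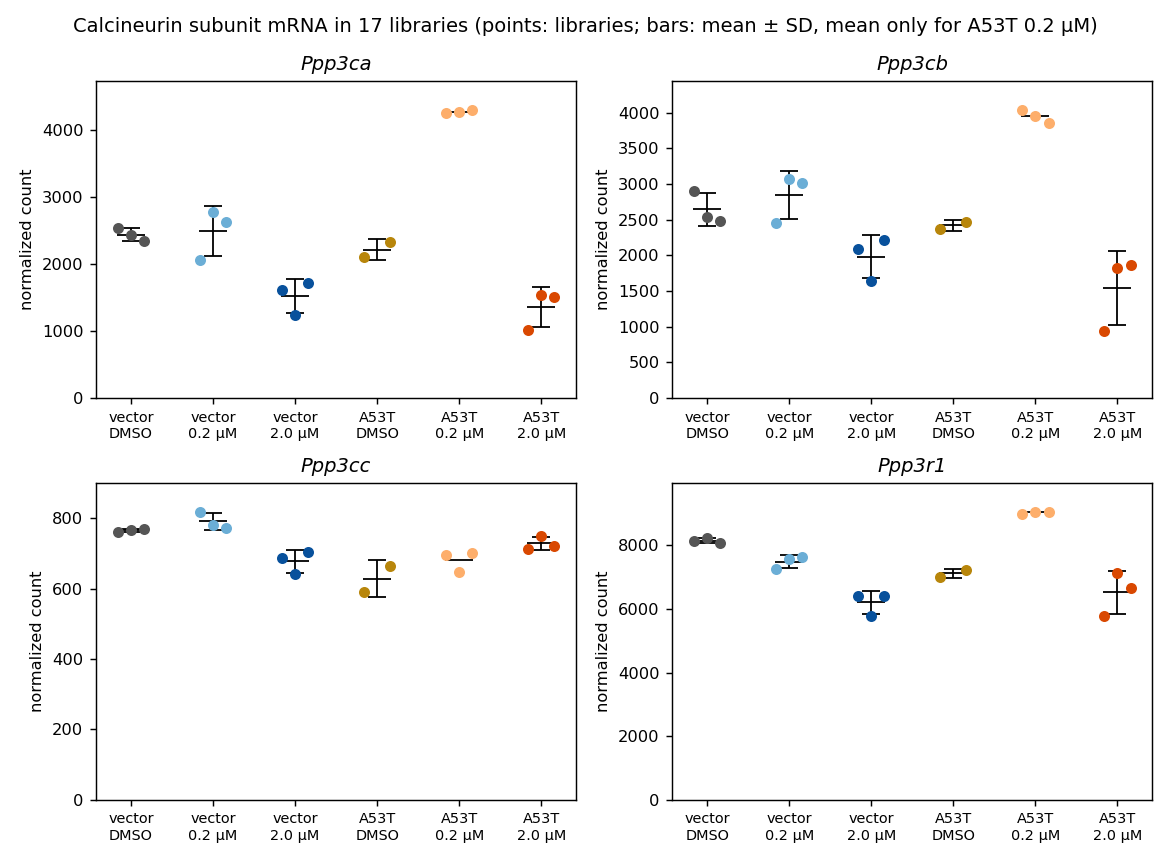
Normalized counts (y axis, from 0) of each subunit gene in every library (points) of the 6 groups (x axis), with bars for the mean ± SD and the mean alone for A53T at 0.2 µM. The A53T libraries at 0.2 µM lie highest for Ppp3ca, Ppp3cb and Ppp3r1, and Ppp3cc has the narrowest span.

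Ppp3ca, which encodes the α catalytic subunit, read 2533, 2441 and 2339 normalized counts in vector with DMSO. With 0.2 µM FK506 the vector libraries read 2069, 2780 and 2636, and with 2.0 µM they read 1610, 1239 and 1715. Every vector library at 2.0 µM thus lay below every vector library of the other doses, while the ranges in DMSO and at 0.2 µM overlapped. In A53T the values were 2106 and 2325 in DMSO, 4258, 4269 and 4305 at 0.2 µM, and 1009, 1543 and 1512 at 2.0 µM. The A53T doses did not overlap either, and the first library at 2.0 µM was the lowest of all 17.

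In order of their means, Ppp3ca stood at 4277 in A53T at 0.2 µM, 2495 ± 376 (SD, n = 3) in vector at 0.2 µM, 2438 ± 96.9 (n = 3) in vector with DMSO and 2216 ± 154 (n = 2) in A53T with DMSO. Vector at 2.0 µM followed at 1521 ± 250 (n = 3) and A53T at 2.0 µM at 1355 ± 299 (n = 3). Vector at 0.2 µM and in DMSO overlapped, as did the 2.0 µM groups of both genotypes, so neither pair is separated beyond its spread. Relative to DMSO, 2.0 µM FK506 lowered Ppp3ca to 0.619 of its level in vector (95% interval of the log2 difference -1.05 to -0.34, limma adjusted p = 0.0039) and to 0.601 in A53T (log2 -0.73 ± 0.18, adjusted p = 0.00914). The difference between these 2 responses was -0.04 ± 0.25 on the log2 scale (interval -0.58 to 0.50, limma adjusted p = 0.921), which leaves room for responses unequal by about that much in either direction. From 0.2 to 2.0 µM the fall in vector was 0.72 ± 0.16 (limma adjusted p = 0.00545, with 33.7% of all genes called). In A53T the log2 difference was -1.68 ± 0.23 (limma adjusted p = 3.42e-05, 77.3% called).

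At 0.2 µM Ppp3ca was 1.93-fold the level in DMSO in A53T (log2 0.95 ± 0.25, limma adjusted p = 0.00466) and 1.02-fold in vector (log2 0.02 ± 0.16, adjusted p = 0.933). The difference of these responses passed the test at 0.93 ± 0.30 (adjusted p = 0.0234, where 47.3% of all genes passed), and it rests on the lone A53T sample. Between the genotypes Ppp3ca was at -0.14 ± 0.18 in DMSO (interval -0.54 to 0.26, limma adjusted p = 0.655), 0.79 ± 0.23 at 0.2 µM (adjusted p = 0.00942, 68.9% of all genes called) and -0.18 ± 0.16 at 2.0 µM (adjusted p = 0.446, 19.6% called). Without the unnumbered library of A53T in DMSO the fall at 2.0 µM in A53T was 0.66 and no longer passed (limma adjusted p = 0.0823). With 3 libraries that lay apart left out, the vector value at 0.2 µM became 0.15 and passed (adjusted p = 0.0293), an alternative chosen after seeing the data that also narrows the spread.

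Ppp3cb, which encodes the β catalytic subunit, read 2905, 2543 and 2482 in vector with DMSO, 2453, 3066 and 3007 at 0.2 µM, and 2084, 1640 and 2215 at 2.0 µM. Its vector libraries at 2.0 µM all lay below those of the other doses, as for Ppp3ca, with a narrower gap. In A53T it read 2368 and 2470 in DMSO, 4039, 3947 and 3858 at 0.2 µM, and 940.7, 1817 and 1860 at 2.0 µM. The first A53T library at 2.0 µM lay far below its partners, which gave that group the widest spread of this gene, 1539 ± 519 (SD, n = 3).

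The order of the group means of Ppp3cb was the order of Ppp3ca, from 3948 in A53T at 0.2 µM through 2842 ± 338 in vector at 0.2 µM, 2643 ± 229 in vector with DMSO, 2419 ± 72.7 in A53T with DMSO and 1980 ± 301 in vector at 2.0 µM to A53T at 2.0 µM. Here too the vector libraries at 0.2 µM and in DMSO overlapped, as did those at 2.0 µM between the genotypes. At 2.0 µM Ppp3cb fell in A53T to 0.608 of its level in DMSO (log2 -0.72 ± 0.24, limma adjusted p = 0.0326). In vector it stood at 0.745 of the DMSO level (log2 interval -0.89 to 0.04, adjusted p = 0.121). The responses of the 2 genotypes differed by -0.29 ± 0.32 (interval -0.98 to 0.40, limma adjusted p = 0.527), so passing in A53T alone does not show a difference between them. Without the first A53T library at 2.0 µM the A53T value was -0.40 (limma adjusted p = 0.0438) and the vector value, still -0.43, passed (adjusted p = 0.00602). Without either library of A53T in DMSO the A53T call was lost (adjusted p = 0.112 and 0.15).

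At 0.2 µM Ppp3cb stood at 0.71 ± 0.32 against DMSO in A53T (limma adjusted p = 0.0657) and at 0.10 ± 0.21 in vector (adjusted p = 0.762). The responses differed by 0.61 ± 0.38, which did not pass (adjusted p = 0.203). Without the first A53T library at 2.0 µM, which enters only the shared spread, both the A53T value (0.71 ± 0.17, limma adjusted p = 0.0021) and the difference of responses (0.61 ± 0.20, adjusted p = 0.0216) passed. From 0.2 to 2.0 µM Ppp3cb fell in A53T, by 1.42 ± 0.30 on the log2 scale (adjusted p = 0.000826), and was at -0.53 ± 0.21 in vector (adjusted p = 0.0748). Between genotypes it was at -0.12 ± 0.24 in DMSO, 0.48 ± 0.30 at 0.2 µM and -0.42 ± 0.21 at 2.0 µM, none of which passed (limma adjusted p = 0.759, 0.17 and 0.177). Without that same library the genotype difference at 0.2 µM (adjusted p = 0.0145) and the fall from 0.2 to 2.0 µM in vector (adjusted p = 0.00252) passed too.

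Ppp3cc, which encodes the γ catalytic subunit, read 760, 766.5 and 769.6 in vector with DMSO, 818.6, 781.7 and 771.2 at 0.2 µM, and 686.5, 641.4 and 703.3 at 2.0 µM. In vector the 2.0 µM libraries were the lowest, without overlap. In A53T it read 590.5 and 664.7 in DMSO, 696.4, 646.1 and 701.8 at 0.2 µM, and 712.3, 749.4 and 722.1 at 2.0 µM. There the 2.0 µM libraries were the highest, also without overlap, so 2.0 µM against DMSO ran in opposite directions in the 2 genotypes. At 0.2 µM the mean lay above that in DMSO in both genotypes, past the test in neither.

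Its group means spanned less than those of the other subunits and had another order: 790.5 ± 24.9 (SD, n = 3) in vector at 0.2 µM, 765.4 ± 4.89 (n = 3) in vector with DMSO, 727.9 ± 19.2 (n = 3) in A53T at 2.0 µM, 681.4 in A53T at 0.2 µM, 677.1 ± 32.0 (n = 3) in vector at 2.0 µM and 627.6 ± 52.5 (n = 2) in A53T with DMSO. The libraries of the last 3 groups overlapped with their neighbour in this order, and the others did not. In DMSO Ppp3cc was 0.819 of its vector level in A53T (log2 -0.29 ± 0.07, limma adjusted p = 0.0164). At 2.0 µM it fell by 0.18 ± 0.06 on the log2 scale in vector (adjusted p = 0.0328) and rose by 0.22 ± 0.07 in A53T (adjusted p = 0.0296). The difference between these responses was 0.39 ± 0.09 and passed the test (limma adjusted p = 0.0167, where 14.6% of all genes passed). After 2.0 µM the genotypes stood at 0.11 ± 0.06 from each other, which did not pass (adjusted p = 0.242).

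Several of these calls for Ppp3cc hang on single libraries. Without the first library of A53T in DMSO, the lowest of all 17, the genotype difference in DMSO was -0.20 (limma adjusted p = 0.227), the rise at 2.0 µM in A53T was 0.13 (adjusted p = 0.267) and the difference of responses was 0.31 (adjusted p = 0.0999). Leaving out the third library of vector in DMSO brought the genotype difference to an adjusted p of 0.0503, and leaving out the second of A53T at 2.0 µM brought the A53T rise to 0.0683. In vector the call at 2.0 µM was lost without any 1 of the 3 DMSO libraries or the first or second at 2.0 µM, with limma adjusted p of 0.0619 to 0.12. At 0.2 µM Ppp3cc stood at 0.05 ± 0.06 in vector (adjusted p = 0.622) and 0.12 ± 0.09 in A53T (adjusted p = 0.266). The genotypes differed at that dose by -0.21 ± 0.09 (adjusted p = 0.0468), a call lost under 16 of 29 alternatives.

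Ppp3r1, which encodes the calcium-binding regulatory subunit, read 8153, 8231 and 8070 in vector with DMSO, 7254, 7573 and 7644 at 0.2 µM, and 6424, 5790 and 6413 at 2.0 µM. In vector each dose lay below the one before it without overlap. In A53T it read 7021 and 7223 in DMSO, 8989, 9063 and 9066 at 0.2 µM, and 5786, 7124 and 6670 at 2.0 µM. The 0.2 µM libraries lay above the rest, and the 2.0 µM libraries overlapped with those in DMSO.

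The means of Ppp3r1 ran from 9039 in A53T at 0.2 µM and 8151 ± 80.1 (SD, n = 3) in vector with DMSO through 7490 ± 207 (n = 3) in vector at 0.2 µM and 7122 ± 143 (n = 2) in A53T with DMSO to 6527 ± 681 (n = 3) in A53T at 2.0 µM and 6209 ± 363 (n = 3) in vector at 2.0 µM. The last 3 overlapped with their neighbour in this order. At 2.0 µM in vector Ppp3r1 fell to 0.761 of its DMSO level (log2 -0.39 ± 0.07, limma adjusted p = 0.00053), and from 0.2 to 2.0 µM it fell by 0.27 ± 0.07 (adjusted p = 0.0101). In A53T it was at -0.13 ± 0.08 at 2.0 µM (interval -0.30 to 0.04, limma adjusted p = 0.193), and the difference of responses, 0.26 ± 0.11, did not pass (adjusted p = 0.105). Without the first A53T library at 2.0 µM that difference was 0.35 and passed (limma adjusted p = 0.0158). At 0.2 µM Ppp3r1 rose in A53T by 0.34 ± 0.11 (limma adjusted p = 0.0116) and was at -0.12 ± 0.07 in vector (adjusted p = 0.235), a difference of responses of 0.47 ± 0.13 that passed (adjusted p = 0.0122). In DMSO the genotypes differed by -0.19 ± 0.08 (interval -0.36 to -0.02, adjusted p = 0.121), and without the first A53T library at 2.0 µM, which enters only the shared spread, this passed (adjusted p = 0.0312).

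The subunits differed in how far single libraries strayed from their own group. The leading axis of all genes' deviations from the group means, over the 14 libraries outside A53T at 0.2 µM, held 54.3% of the variance within groups. Along it Ppp3ca moved by 0.18 on the log2 scale per standard deviation, Ppp3cb by 0.23, Ppp3r1 by 0.06 and Ppp3cc by 0.01. The correlation of each gene's deviations with the axis was 0.96, 0.93, 0.81 and 0.19 in that order of genes, a description over 14 libraries in which the axis was built from these libraries and from genes that include the 4. In loading, Ppp3ca lay at percentile 86.1 of all genes and Ppp3cb at 89.6, so many other genes moved along the axis as they did. The lowest library on the axis was the first of A53T at 2.0 µM at -3.28, in which Ppp3ca lay 0.40 and Ppp3cb 0.64 below their group means on the log2 scale. Libraries of A53T at 0.2 µM, which did not shape the axis, scored 6.75 to 6.81 on it, against -3.28 to 2.07 for the other 14. The part of this axis in the differences of Ppp3ca, Ppp3cb and Ppp3r1 with A53T at 0.2 µM was not tested.

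**Figure D3:**
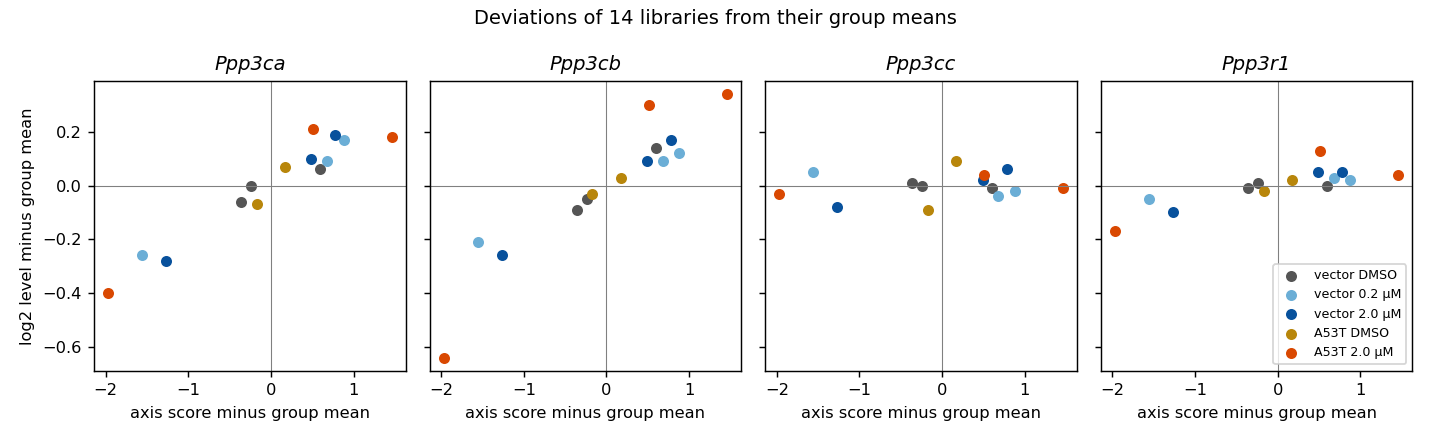
Deviation of each subunit gene from its group mean (y axis, log2) against the deviation of the library's score on the leading axis of within-group variation (x axis), for 14 libraries coloured by group. Ppp3ca and Ppp3cb climb along the axis, with correlations of 0.96 and 0.93, Ppp3r1 climbs less steeply and Ppp3cc lies flat at 0.19.

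Ratios between subunits within a library do not depend on the scaling of that library. At 2.0 µM against DMSO, averaged over the 2 genotypes, the log2 ratio of Ppp3ca to Ppp3r1 was lower by 0.45, with a difference of -0.30 in vector and -0.60 in A53T. The ratio of Ppp3ca to Ppp3cc differed by -0.73 (vector -0.52, A53T -0.95) and that of Ppp3cb to Ppp3cc by -0.59 (vector -0.25, A53T -0.93). For Ppp3cc to Ppp3r1 the difference was 0.28 (vector 0.22, A53T 0.35). Each of these 4 gave the smallest p that the exact permutation test within genotypes allows, 0.005 over 200 arrangements (two-sided, adjusted p = 0.03 over 42 tests of ratios). So the α subunit mRNA was lower relative to its regulatory partner at the higher dose, and the γ subunit mRNA was higher relative to it, in both genotypes. With 1 library left out at a time the 4 calls were lost in 10 of 17 settings, with adjusted p of at most 0.075, or 0.283 for Ppp3cb to Ppp3cc. Leaving out a library of these groups leaves fewer arrangements and raises the smallest p possible. Such a loss therefore cannot show by itself that a call hangs on that library. The 17 settings include libraries at 0.2 µM, which enter only the adjustment of these 4 tests.

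The ratio of the α to the β catalytic subunit differed by -0.14 (vector -0.27, A53T -0.02; exact p = 0.145, adjusted p = 0.252) and did not pass. In vector it ran from -0.20 to -0.06 in DMSO and from -0.40 to -0.37 at 2.0 µM on the log2 scale, without overlap. In A53T it ran from -0.17 to -0.09 in DMSO and from -0.30 to 0.10 at 2.0 µM, where the library at 0.10 was the first. Without that library the ratio difference was -0.20 and passed (exact permutation adjusted p = 0.049). For Ppp3cb to Ppp3r1 the difference was -0.31 (vector -0.03, A53T -0.59; exact p = 0.12, adjusted p = 0.229). At 0.2 µM none of the 6 ratios between subunits passed, with exact permutation adjusted p from 0.0778 to 0.927, and none did between A53T and vector within doses, from 0.0591 to 0.718.

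**Figure D4:**
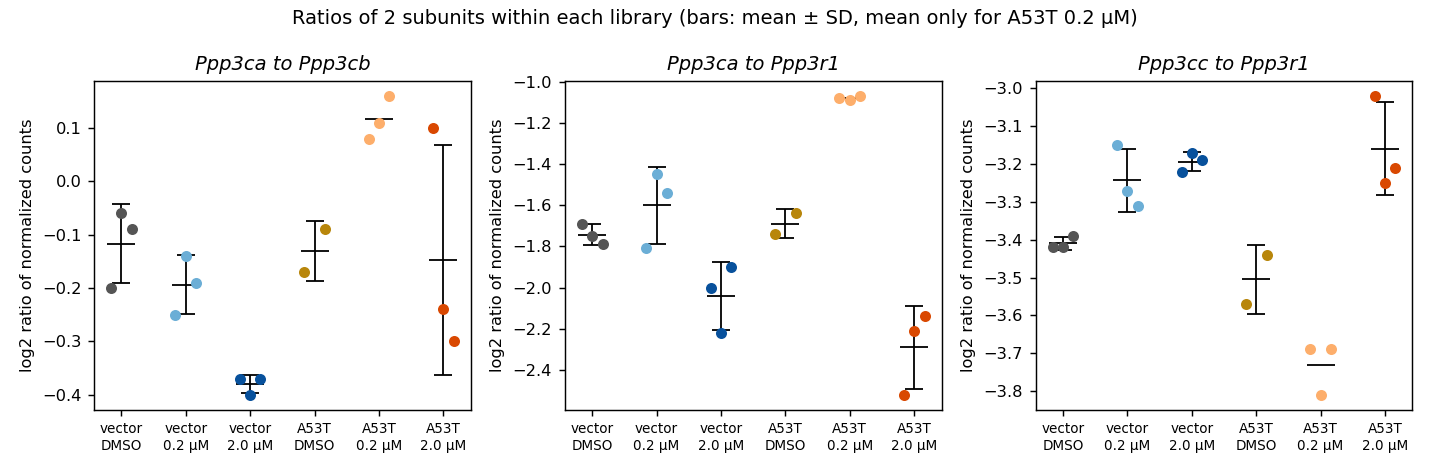
Log2 ratio of the normalized counts of 2 subunits (y axis) in every library (points) of the 6 groups (x axis), with mean ± SD bars and the mean alone for A53T at 0.2 µM. The 2.0 µM libraries lie below DMSO for Ppp3ca to Ppp3r1 and above it for Ppp3cc to Ppp3r1 in both genotypes.

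Markers of the cell types in these cultures moved with the doses too. The summed level of the 11 pan-neuronal markers ran from 87536 to 91819 in vector with DMSO and from 65611 to 69003 at 2.0 µM, and in A53T from 82451 to 84028 and from 74149 to 85478. Singly, 6 of the 11 fell and none rose in vector (median log2 difference -0.36), and 6 fell and 1 rose in A53T (median -0.53). For these counts and those of the astrocyte markers below, 47.2% of all genes passed in vector (23.8% lower). In A53T 37.6% of all genes passed (17.9% lower and 19.7% higher). The abundant Uchl1 stood in A53T at 30150 in DMSO and 35640 at 2.0 µM and did not pass (limma adjusted p = 0.239). The 8 glutamatergic markers summed to 11265 to 12869 in vector with DMSO and 6559 to 8122 at 2.0 µM, and in A53T to 10456 to 11272 and 3936 to 6072. The 10 astrocyte markers summed to 103023 to 104758 in vector with DMSO and 44441 to 45554 at 2.0 µM, and in A53T to 82799 to 86615 and 51770 to 54407. In vector 8 of the 10 fell and 2 rose (median -0.91). In A53T 4 fell and 3 rose (median 0.00), and the lower sum lay mostly in Gfap, the filament protein of astrocytes, at 35670 in DMSO and 6684 at 2.0 µM, while Aldoc and Glul rose.

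Other lists moved in their own ways. The 7 GABAergic markers summed to 30660 to 34560 in vector with DMSO and 12236 to 14180 at 2.0 µM, and in A53T to 16405 to 16799 and 10835 to 13700. Singly, 5 of these 7 fell in vector and 4 in A53T, and 0 rose. The 7 oligodendrocyte lineage markers summed to 3306 to 3325 in vector with DMSO and 1550 to 1607 at 2.0 µM, and in A53T to 2848 to 2863 and, higher, 4119 to 4226. Of these 7, 3 fell and 1 rose in vector, and 2 fell and 4 rose in A53T. Most of the A53T sum was Olig1, at 2109 in DMSO and 3078 at 2.0 µM. Over all genes 47.2% passed at 2.0 µM in vector (23.8% lower) and 37.6% in A53T (17.9% lower and 19.7% higher). At 0.2 µM in A53T, where Ppp3ca and Ppp3r1 rose, the glutamatergic sum was higher than in DMSO at 15730 to 16248, the astrocyte sum lower at 60289 to 60605 and the GABAergic sum lower at 11585 to 11607. The pan-neuronal sum was lower too, at 76137 to 77029. Members of a list did not all move together. Singly, 4 glutamatergic markers rose and 1 fell, and 2 astrocyte markers rose and 3 fell. Of the GABAergic markers 1 rose and 2 fell, and of the pan-neuronal markers 3 rose and 3 fell. The mean of Sst went from 8783 to 2917 and that of Gad2 from 369.1 to 2201. Over all genes 67.8% passed there and 33.6% passed as higher.

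The part of these markers in the subunit differences was not tested as a cause, but each subunit can be set against the mean log2 level of the markers in the same library. Measured that way, 2.0 µM differed from DMSO for Ppp3ca against the pan-neuronal markers by -0.13 (exact permutation p = 0.015, adjusted p = 0.0467) and for Ppp3cb by 0.02 (adjusted p = 0.935). For Ppp3r1 the difference was 0.32 (adjusted p = 0.0467) and for Ppp3cc 0.61 (adjusted p = 0.03), both in exact permutation tests within genotypes. Relative to neuronal markers, then, Ppp3ca was lower by a small amount, Ppp3cb did not differ beyond the spread, and Ppp3r1 and Ppp3cc were higher. The calls for Ppp3ca and Ppp3r1 were lost under 14 of 21 alternatives and that for Ppp3cc under 10, with no change of direction. In all these exact tests, leaving out a library of the groups compared can raise the smallest p possible.

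Against the astrocyte markers the 2.0 µM difference was -0.20 for Ppp3ca (vector 0.05, A53T -0.44; exact permutation adjusted p = 0.42) and -0.05 for Ppp3cb (vector 0.32, A53T -0.42; adjusted p = 0.927). For Ppp3cc it was 0.54 (adjusted p = 0.03) and for Ppp3r1 0.26 (adjusted p = 0.0467) in the same exact test, calls lost under 10 and 14 of 21 alternatives. At 0.2 µM, averaged over the genotypes, Ppp3ca was higher by 0.29 against the pan-neuronal markers (vector 0.07, A53T 0.51) and by 0.54 against the astrocyte markers (vector 0.34, A53T 0.74). Ppp3cb was higher by 0.21 (vector 0.15, A53T 0.27) and 0.45 (vector 0.42, A53T 0.49). These 4 gave the smallest p that 60 arrangements allow (exact permutation p = 0.0167, adjusted p = 0.0467), their A53T part rests on the lone sample, and each call was lost under 14 of 21 alternatives. Ppp3cc and Ppp3r1 did not pass at that dose against either marker set (exact permutation adjusted p from 0.0778 to 0.591). The 21 alternatives include the pan-neuronal set without Map2. Over them the 0.2 µM difference against that set ran from 0.27 to 0.53 for Ppp3ca and 0.20 to 0.45 for Ppp3cb. For Ppp3cc it ran from -0.18 to 0.13 and for Ppp3r1 from -0.13 to 0.16. The astrocyte marker Slc1a2 stood in A53T at 118.7 in DMSO and 2229 at 0.2 µM, and no alternative left it out. Between A53T and vector within doses, Ppp3cb against the pan-neuronal markers differed by -0.13 (exact permutation adjusted p = 0.03), and without Map2 among the markers by -0.02 (adjusted p = 0.905), so that call rests on Map2. Ppp3cc against the astrocyte markers differed by -0.25 (exact permutation adjusted p = 0.0459), with -0.08 in DMSO, -0.54 at 0.2 µM and -0.14 at 2.0 µM, a call lost under 13 of 21 alternatives.

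The wider pathway was read from lists ordered by role, and the counts below are of measured genes past limma's test. At 2.0 µM in vector, where 47.2% of all genes passed, 2 of 3 calmodulin genes fell, among them Calm2 by 0.38 ± 0.06 on the log2 scale. Of 8 regulators and anchors, 5 fell and none rose, among them Akap1, an anchoring protein, by 0.64 ± 0.18, Chp1, a calcineurin B homologue, by 0.24 ± 0.07 and the inhibitor Cabin1 by 0.18 ± 0.05. Relative to DMSO, the mean of Rcan2 in the same list was lower by more than these, at 2770 in DMSO and 1542 at 2.0 µM. Of 9 immunophilins 5 fell and 1 rose. The median log2 difference was -0.38 for the calmodulin genes, -0.21 for the regulators and -0.39 for the immunophilins, against 0.00 for all genes.

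In A53T at the same dose, where 37.6% of all genes passed, 3 of the 8 regulators fell: Akap5, which anchors calcineurin at synapses, by 1.64 ± 0.35, Akap1 by 0.87 ± 0.21 and Cabin1 by 0.21 ± 0.06. Of the 9 immunophilins none fell and 2 rose, Ppif, the mitochondrial cyclophilin, by 0.43 ± 0.09 and Fkbp5 by 0.30 ± 0.06. The responses of the genotypes differed past the test for Calm2 (0.28 ± 0.09, limma adjusted p = 0.0481) and for Ppia, the binding partner of cyclosporin (0.55 ± 0.17, adjusted p = 0.047).

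Among 24 proteins that calcineurin is known to dephosphorylate, 10 genes fell and 2 rose at 2.0 µM in vector, and 10 fell and 1 rose in A53T. Over all genes 47.2% passed in vector (23.8% lower) and 37.6% in A53T (17.9% lower), so in vector the number that passed was near the share of all genes. Dnm1, the neuronal dynamin, fell by 0.57 ± 0.05 in vector and 0.49 ± 0.06 in A53T. Ppp1r1b, an inhibitor of protein phosphatase 1, fell by 0.97 ± 0.08 in vector and 0.35 ± 0.09 in A53T, and these responses differed past the test (0.62 ± 0.13, limma adjusted p = 0.00765). The medians of the 24 genes were -0.31 in vector and -0.69 in A53T.

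The other phosphatases of the PPP family serve as the nearest relatives of the catalytic subunits. At 2.0 µM in vector 4 of 8 fell and 1 rose: Ppp1cc fell by 0.47 ± 0.07, Ppp1ca by 0.39 ± 0.09, Ppp2ca by 0.26 ± 0.07 and Ppp5c by 0.16 ± 0.05, where 47.2% of all genes passed. In A53T none of the 8 passed, where 37.6% of all genes did, and the response differed between genotypes for Ppp1cc (0.41 ± 0.11, limma adjusted p = 0.0284) and Ppp1ca (0.43 ± 0.13, adjusted p = 0.041). Of the 10 calcium and calmodulin dependent kinases, which act on many of the same pathways, 5 fell in vector (23.8% of all genes passed as lower) and 7 in A53T (17.9%) with none higher, Camk2b by 0.58 ± 0.05 and 0.42 ± 0.06. Camk4 fell by 1.08 ± 0.13 in vector and was at -0.25 ± 0.14 in A53T, a difference in response of 0.83 ± 0.19 (limma adjusted p = 0.0134).

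Downstream, NFAT target genes numbered 13 measured, of which 10 fell and 1 rose at 2.0 µM in vector and 7 fell in A53T with none higher, where 23.8% and 17.9% of all genes passed as lower. Bdnf, a neurotrophin, fell by 1.96 ± 0.12 in vector and 1.30 ± 0.13 in A53T. The median was -0.65 in vector and -0.62 in A53T. At 0.2 µM in vector, where no subunit passed and 18.3% of all genes did in either direction, 4 of the 13 targets, 5 of 24 substrates and 4 of 9 immunophilins fell. None of these lists held a rise, and Bdnf was at -1.30 ± 0.12. The number of substrates that passed was near the share of all genes, and the share that passed as lower is not given here. Without drug, in A53T against vector, where 14% of all genes passed and 8.19% passed as lower, 2 of 13 targets fell and 1, Egr2, rose by 0.87 ± 0.21. Of 24 substrates 4 fell and of 10 kinases 4 fell with none higher in either list, Camk1g by 0.72 ± 0.07, and Ppp1cc of the sister phosphatases fell by 0.42 ± 0.08.

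**Figure D5:**
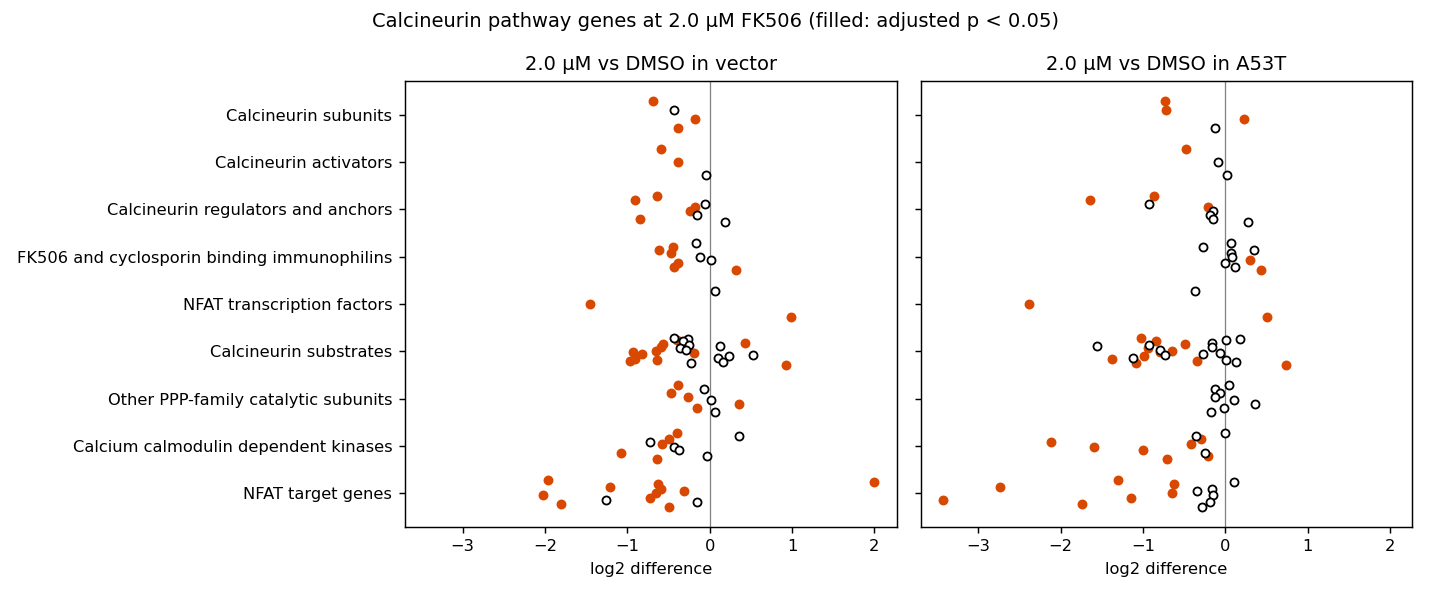
Log2 difference (x axis) of every measured gene of the calcineurin pathway lists (y axis) at 2.0 µM FK506 against DMSO, in vector (left) and A53T (right), with filled points at a limma adjusted p below 0.05. Most filled points lie left of 0 in both genotypes, and of the other PPP-family phosphatases 4 fell and 1 rose in vector and none passed in A53T.

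The genes whose levels most resembled each subunit over the 15 samples were found by Pearson correlation of log2 values, given here as a description, since the samples share groups, the leading axis and their scaling. Ppp3ca was most like Ctnnd2, a δ-catenin of neurons, at 0.996, followed by Adcy5, Atp2a2, Gabbr2 and Herc3 at 0.987 to 0.989, and least like Fam32a and Cops4, both at -0.993. Ppp3cb was most like Hs6st2 at 0.989, then Rasgrp1, Nsf, Satb1 and Dlg4, the postsynaptic scaffold PSD-95, at 0.983, and least like Scnm1 and Dnajc24. For Ppp3r1 the closest included Nckap1 at 0.976, Rin2, Pdha1 and Lgi1, and the farthest Lrrc47 and Hgs. Ppp3cc had no neighbour as near: Ogdhl stood at 0.868, then Copg2, Mrrf, Ppp1r3c and Gtpbp10, with Cry1 and Rai14 at the other end at -0.829 and -0.899.

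Between the subunits themselves the correlation over the 15 samples was 0.954 for Ppp3ca with Ppp3cb, 0.923 for Ppp3ca with Ppp3r1 and 0.845 for Ppp3cb with Ppp3r1. Ppp3cc stood at 0.20 with Ppp3ca, 0.19 with Ppp3cb and 0.377 with Ppp3r1. Without the sample of A53T at 0.2 µM the first 3 values were 0.950, 0.898 and 0.801. Those of Ppp3cc were then higher, at 0.37 with Ppp3ca, 0.306 with Ppp3cb and 0.539 with Ppp3r1. Among all genes ranked by likeness to Ppp3ca, Ppp3cb came at rank 129 and Ppp3r1 at rank 376, so many genes were closer to Ppp3ca than its fellow subunits were.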

How the data were processed

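The 17 stranded mRNA libraries were made from RNA of rat cortical cultures, per the labels' protocols. The submitters' processing notes name FastQC, TopHat, HTSeq and rn6, without versions. The authors normalized their gene counts before these were deposited, by a method not given in the sources used here, and the result was treated as a signal and not as counts. In 8 of 17 libraries at least 95% of low values lay within 0.1 step of whole multiples of a single step, so whole reads were not recovered in all, no count test was run and the raw depth is unknown. Reads shared with pseudogenes that RefSeq lists for Ppp3r1 and Ppp3cb could not be told apart, and levels were not compared between genes, as transcript lengths were not used here.

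A pseudocount of 1 was added before taking log2, and limma 3.58.1 (trend) in R 4.3.3 fitted all 11247 genes in 15 samples at once, with a mean per group, 9 residual degrees of freedom and Benjamini-Hochberg adjustment. A minimum mean of 1 removed 0 genes. The design named all 17 libraries; the 3 of A53T at 0.2 µM were averaged, and their lone mean is assumed to vary like the other samples, while all 17 were an alternative. Log2 differences are on the log2(value + 1) scale, with their SE. Nothing says that libraries came from separate cultures, so p-values reflect variation among these libraries alone, and it may be technical. The unnumbered library of A53T in DMSO has a column numbered 3 and no title with that number. Ratios were tested by exact two-sided permutation within strata, adjusted over 42 tests. Named genes were the 4 subunits, at most 4 pathway genes per role and comparison by smallest p (each followed in the other comparisons too) and the 5 most and 2 least alike genes. A few genes that this rule names are left out of the text, and the markers Map2, Uchl1, Gfap, Aldoc, Glul, Sst, Gad2, Olig1 and Slc1a2 were named after their values were seen. The fit was tested on simulated data. Alternatives were pseudocounts, filters, scalings, designs and each library left out. The members and lists were chosen with earlier results of these data known. Sequences came from RefSeq by symbol, on GRCr8 and not rn6.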

Additional observations from a re-analysis of the deposited data

Results flagged for a closer look

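The response to FK506 differed between the genotypes, by limma's interaction term, for 3 subunit genes. Ppp3ca at 0.2 µM differed by 0.93 ± 0.30 on the log2 scale (adjusted p = 0.0234), with its 3 A53T libraries above every other library of the study. Ppp3r1 at 0.2 µM differed by 0.47 ± 0.13 (adjusted p = 0.0122), also with all 3 A53T libraries above the rest. Both rest on the A53T libraries at 0.2 µM that were counted as 1 sample, and 47.3% of all genes passed the same term at that dose. Ppp3cc at 2.0 µM differed by 0.39 ± 0.09 (adjusted p = 0.0167), where 14.6% of all genes passed. It was lower than DMSO in 3 of 3 vector libraries and higher in 3 of 3 A53T libraries. Without the first library of A53T in DMSO the Ppp3cc difference was 0.31 and no longer passed.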

How the results depend on the processing

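Over 44 results for the subunits and 1304 settings of them, 1225 kept their side of the threshold, 51 no longer passed, 28 newly passed and no call changed sign. Of the 1225, 17 settings of 9 results that did not pass had the other sign or 0, with values from -0.12 to 0.16. With only the groups compared in the fit, Ppp3r1 in A53T against vector in DMSO passed at -0.19 (adjusted p = 0.00388), Ppp3cb at 2.0 µM in vector at -0.43 (0.0112) and at 0.2 µM in A53T at 0.71 (2.19e-31, from a lone sample against 2), while at 2.0 µM in A53T Ppp3ca at -0.73 (0.0513), Ppp3cb at -0.72 (0.129) and Ppp3cc at 0.22 (0.154) no longer passed. Ppp3cb at 0.2 µM in A53T also passed with quantile normalization at 0.81 (0.0438) and with all 17 libraries at 0.71 (0.00881). Leaving out 3 libraries that lay apart, chosen after seeing the data, let Ppp3r1 in A53T against vector in DMSO (-0.19, 0.00144), Ppp3ca and Ppp3cb at 0.2 µM in vector (0.15, 0.0293 and 0.20, 0.00957), Ppp3cb at 2.0 µM in vector (-0.30, 0.000456) and at 0.2 µM in A53T (0.71, 5.25e-07) pass, and Ppp3cc at 2.0 µM in vector no longer did (-0.14, 0.0754). The cause of these changes was not tested.

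The replicate block by title numbers could not place the unnumbered A53T library in DMSO, so that group kept a lone library. Only log2 differences are given for this setting, in which 6 calls were lost. They were Ppp3cc in A53T against vector in DMSO (-0.38), Ppp3cc at 2.0 µM in vector (-0.18) and Ppp3r1 at 0.2 µM in A53T (0.32). At 2.0 µM in A53T they were Ppp3ca (-0.79), Ppp3cb (-0.84) and Ppp3cc (0.31). All but the vector call use the group with the lone library, and the part of blocking itself in these losses was not tested. By column numbers, which include the unnumbered library, the block lost Ppp3cc at 2.0 µM in vector (-0.18, limma adjusted p = 0.0517). Deviations of same-numbered libraries correlated from -0.51 to 0.67 (median -0.11) over 22 pairs, so the numbers were not taken to pair samples.

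With each library left out in turn, A53T against vector in DMSO ran from -0.37 to -0.20 for Ppp3cc and -0.22 to -0.17 for Ppp3r1. At 2.0 µM in vector Ppp3cb ran from -0.51 to -0.30 and Ppp3cc from -0.21 to -0.14, and in A53T Ppp3ca from -0.84 to -0.53, Ppp3cb from -0.89 to -0.40 and Ppp3cc from 0.13 to 0.30. Ppp3cb at 0.2 µM in A53T ran from 0.68 to 0.74. For the ratios at 2.0 µM the ranges were -0.78 to -0.64 for Ppp3ca to Ppp3cc, -0.49 to -0.39 for Ppp3ca to Ppp3r1, -0.68 to -0.44 for Ppp3cb to Ppp3cc, 0.25 to 0.31 for Ppp3cc to Ppp3r1 and -0.20 to -0.10 for Ppp3ca to Ppp3cb. The first 4 lost their call in 10 of 17 such settings, where fewer arrangements remained and the smallest p possible was higher. Over 42 ratios and 882 settings, 694 kept their call, 182 no longer passed, 6 newly passed and 0 reversed. Counts over all genes ran from 331 to 4390 for A53T in DMSO (1579 as reported), 980 to 5897 at 0.2 µM in vector (2056), 4523 to 6885 at 2.0 µM in vector (5307) and 1574 to 5437 at 2.0 µM in A53T (4233). The lowest counts for A53T in DMSO and at 2.0 µM in A53T came from the block by title numbers, with its lone A53T library in DMSO. Sample weights could not be fitted, and the planned count test was not run. As the raw depth is unknown, counting error has no interval here.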
